A study of Sus scrofa with 2 samples.

Results

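The proteasome was represented in the deposited transcriptome of the pig longissimus dorsi muscle (LM) by 10 genes: PSMA7, PSMB3, PSMB4, PSMB5, PSMB9, PSMC5, PSMD1, PSMD8, PSMD9 and PSMD13. A gene was included where a unigene, an assembled transcript sequence, had a protein match in the nr database that was a RefSeq protein of that pig gene. Each of the 10 genes had 1 unigene in the table, so none had to be chosen among several. They were 10 of the 4484 genes that received a pig symbol in this way, and their unigenes were 10 of 65535 in the table. The table held fewer unigenes than the study assembled, so a gene not found in it may still have been assembled. Of the 10 genes, 4 encode subunits of the 20S core (PSMA7, PSMB3, PSMB4 and PSMB5), 1 encodes a subunit of the immunoproteasome (PSMB9) and 5 carry names of the 19S cap (PSMC5, PSMD1, PSMD8, PSMD9 and PSMD13).

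The proteasome degrades proteins that have been tagged with ubiquitin. Its 20S core is a barrel of outer alpha and inner beta rings with the proteolytic sites inside, and its 19S cap recognises the ubiquitin chain, unfolds the protein and feeds it into the barrel. In cells stimulated with interferon, and constitutively in many immune cells, special beta subunits such as PSMB9 replace the standard ones and change the peptides that are produced for MHC class I. In skeletal muscle the ubiquitin-proteasome system is a main route of breakdown of myofibrillar proteins, with TRIM63 (MuRF1) and FBXO32 (atrogin-1) as the best known muscle ubiquitin ligases.

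The LM was taken from 3 male Shaziling pigs, an indigenous Chinese breed, and 3 male Yorkshire pigs, a lean breed, all aged 25 days and untreated as far as the labels say. The pigs of a breed were full sibs of 1 family, so breed and litter cannot be told apart. The authors deposited 1 column of reads and 1 column of RPKM values (reads scaled by unigene length and library depth) per breed, each naming 3 animals, and whether RNA was pooled or reads were merged was not given in the sources used here. The sample titles and the column names agree on the breed, while a further descriptive field gives the Yorkshire sample the indigenous class and the Shaziling sample the lean class. The titles were followed. There was therefore 1 library per breed, no spread between pigs could be computed, and no difference below has a replicate check.

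The library total behind the RPKM values was 33949238 reads for Yorkshire and 28305925 reads for Shaziling. A pair of mitochondrial unigenes took 46.4% of the former and 11.8% of the latter. The log2 ratio of Shaziling over Yorkshire had a median of 0.35 over the 2363 unigenes that reached 10 RPKM in each library, so a gene at the median stood 1.28-fold higher in Shaziling before any rescaling. Muscle was identified by its fibre genes: fast-fibre MYH4 had 2748 RPKM in Yorkshire and 6978 RPKM in Shaziling, and slow-fibre MYH7 had 836 and 1112 RPKM. Markers of other cells also differed, with 3 of the 5 listed erythroid markers found and their summed level at 18.9 RPKM in Yorkshire and 213 RPKM in Shaziling. HBM, a globin gene, was at 0 reads in Yorkshire. Summed levels were 27.8 and 54.5 RPKM for 3 of 7 adipocyte markers, 36.3 and 67.0 RPKM for 3 of 7 endothelial markers and 724 and 692 RPKM for 5 of 7 fibroblast markers, in Yorkshire and Shaziling respectively. Whether these cells contributed to the proteasome values was not tested, and in bulk tissue fewer cells of a type cannot be told apart from less RNA per cell.

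Ratios below divide the RPKM in Shaziling by the RPKM in Yorkshire, and the 95% intervals beside them were computed from the reads by the exact Clopper-Pearson method. They cover counting error only. A gene was called different at a fold change (FC) of 2 and an adjusted p of 0.05. The p came from comparing its reads in both libraries with the library totals (exact binomial test, two-sided, Benjamini-Hochberg adjustment over all unigenes). The test compares these 2 libraries, not the breeds.

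By this rule 6 of the 10 proteasome genes were higher in the Shaziling library (PSMA7, PSMB3, PSMB4, PSMB5, PSMB9 and PSMD9) and 0 were higher in the Yorkshire library. Over all unigenes of the table, 25.2% were called in the former direction and 7.68% in the latter. Of unigenes that reached 10 RPKM in at least 1 library 35.5% were called higher in Shaziling, and of genes with a pig symbol 35.8%, against 3.21% of the latter called higher in Yorkshire. The ratio was above 1 for 9 of the 10 proteasome genes, beside 75.4% of all genes with a symbol. The median ratio was 2.11 over the 10 genes and 1.57 over the 4362 genes with a symbol and reads in both libraries.

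**Figure D1:**
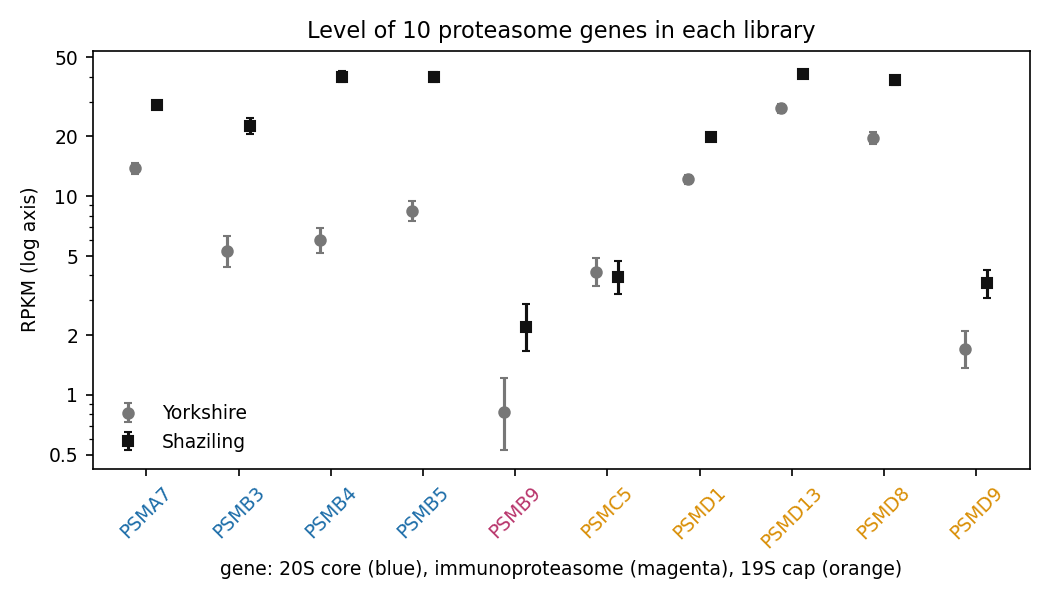
Level of each of the 10 proteasome genes in RPKM (log axis) in Yorkshire (gray circles) and Shaziling (black squares); bars are exact 95% Poisson intervals on the reads, and gene names are coloured by group. The 3 beta-ring genes PSMB3, PSMB4 and PSMB5 lie between 5.29 and 8.44 RPKM in Yorkshire and between 22.6 and 40.1 RPKM in Shaziling, while the intervals of PSMC5 overlap.

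In the 20S core, all 4 genes were called higher in Shaziling, beside 35.8% of all genes with a symbol. The 3 beta-ring genes had the largest ratios of the 10. PSMB4 encodes a beta subunit without a proteolytic site of its own. Its unigene (contig_6576, 948 bp) had 194 reads and 6.03 RPKM in Yorkshire and 1075 reads and 40.1 RPKM in Shaziling. The ratio was 6.65 (95% interval 5.70 to 7.78), with an adjusted p of 2.56e-183 in the exact binomial test. In rank among all unigenes of its library, PSMB4 stood above 93.0% in Yorkshire and above 98.6% in Shaziling.

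PSMB5 carries the chymotrypsin-like site, the target of the proteasome inhibitor bortezomib. Its unigene (contig_11901, 1029 bp) had 295 reads and 8.44 RPKM in Yorkshire and 1157 reads and 39.7 RPKM in Shaziling. The ratio was 4.70 (4.14 to 5.36; exact binomial test, adjusted p = 2.33e-155). PSMB3, like PSMB4, is a beta subunit without catalytic activity. It had 128 reads and 5.29 RPKM in Yorkshire and 457 reads and 22.6 RPKM in Shaziling on a unigene of 713 bp (contig_13252). The ratio of 4.28 (3.51 to 5.25) had an adjusted p of 8.72e-57 in the exact binomial test. PSMB3 and PSMB5 were not distinguished by their ratios, since the quotient of 1.10 had an interval that included 1, whereas the ratio of PSMB4 was 1.41 times that of PSMB5 (1.15 to 1.73).

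PSMA7, a subunit of the alpha ring, differed less. It had 1034 reads and 13.8 RPKM in Yorkshire and 1795 reads and 28.8 RPKM in Shaziling (contig_8593, 2205 bp). Its ratio of 2.08 (1.93 to 2.25; exact binomial test, adjusted p = 2.15e-80) lay just inside the FC threshold, with an interval that reached below it. The ratios of the 3 beta-ring genes exceeded that of PSMA7 by 2.06-fold (1.66 to 2.56) for PSMB3, 3.19-fold (2.68 to 3.81) for PSMB4 and 2.26-fold (1.94 to 2.63) for PSMB5. Within the core, the share of the summed RPKM that belonged to PSMA7 was 41.1% in Yorkshire and 21.9% in Shaziling. For PSMB4 the share was 17.95% and 30.5%, for PSMB5 25.2% and 30.3%, and for PSMB3 15.8% and 17.3%, in the same order of libraries. The order of the core subunits by level was thus PSMA7, PSMB5, PSMB4, PSMB3 in Yorkshire and PSMB4, PSMB5, PSMA7, PSMB3 in Shaziling, where PSMB4 and PSMB5 differed by less than counting error.

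A further beta-ring gene did not share this pattern. PSMB7, which carries the trypsin-like site, was outside the 10 because its protein match was a Swiss-Prot entry instead of a RefSeq one. It had 1249 reads and 38.2 RPKM in Yorkshire and 1270 reads and 46.5 RPKM in Shaziling. Its ratio of 1.22 (1.13 to 1.32) missed the FC threshold, and it was the most abundant of all core genes found, in both libraries. Against PSMB7, the ratio of PSMB4 was 5.45-fold larger (4.58 to 6.50), that of PSMB5 3.86-fold (3.31 to 4.50) and that of PSMB3 3.51-fold (2.83 to 4.37). The 4 core genes had a median ratio of 4.49, which was 4.28 with PSMB7 added; PSMB7 was added after the data were seen. Between the genes with a catalytic site, the RPKM of PSMB5 was 0.221 of that of PSMB7 in Yorkshire and 0.853 of it in Shaziling.

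The study's pathway annotation assigned further unigenes without a pig symbol to the proteasome. The copy of that list used here was cut short, so the set is partial. Of the unigenes readable in it, 7 without a pig symbol were in the table. Of the 7, 1 fragment of 204 bp (contig_40954) was named by the study as human PSMA7. It had 11 reads in Yorkshire against 178 in Shaziling, with a ratio of 19.4 (10.6 to 39.6), beside 2.08 for the PSMA7 unigene of 2205 bp. The reads of the fragment and the long unigene together gave a ratio of 2.26, a sum formed after the data were seen. Of the other 6 unigenes, 3 were called higher in Shaziling, beside 25.2% of all unigenes of the table, and 0 higher in Yorkshire, beside 7.68%. The 4 long ones, with 14.4 to 33.4 RPKM, had ratios from 0.998 to 2.06, and the one with the ratio of 2.06 (1633 and 2807 reads) was called. The 2 short ones rested on few reads: contig_63513 had 6 reads in Yorkshire against 31 in Shaziling (ratio 6.20, 2.55 to 18.2), and contig_47846 had 1 against 19 (ratio 22.8, 3.62 to 947).

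PSMB9, the interferon-inducible beta subunit, had the lowest level of the 10 genes in both libraries. Its unigene (contig_21287, 897 bp) had 25 reads and 0.821 RPKM in Yorkshire (0.531 to 1.21) and 56 reads and 2.21 RPKM in Shaziling (1.67 to 2.86). The ratio was 2.69 (1.65 to 4.49; exact binomial test, adjusted p = 0.000148), and with so few reads its interval reached from below the FC threshold to the range of the beta-ring genes. With a pseudocount of 1 RPKM the ratio was 1.76 and the gene missed the threshold. PSMB9 differed from 5 of the 9 other genes beyond counting error: its ratio was smaller than those of PSMB4 and PSMB5 and larger than those of PSMC5, PSMD1 and PSMD13. Relative to PSMB7, the level of PSMB9 was 0.0215 in Yorkshire and 0.0474 in Shaziling, a 2.20-fold difference (1.34 to 3.71).

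The PA28 activator, an interferon-induced ring that can open the core, was measured through its alpha and beta subunits. PSME2 (PA28 beta) had 5.98 RPKM in Yorkshire and 17.3 RPKM in Shaziling, a ratio of 2.89 (2.37 to 3.53) that was called. PSME1 (PA28 alpha) had 18.7 and 35.7 RPKM, a ratio of 1.91 (1.76 to 2.08) that missed the threshold.

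In the pig genome assembly Sscrofa11.1, PSMB9 lies in the MHC region beside TAP1, PSMB8 and TAP2. Of these neighbours only TAP2, a subunit of the transporter that carries proteasome products into the endoplasmic reticulum, had a matched unigene. TAP2 had 1.21 RPKM in Yorkshire and 3.69 RPKM in Shaziling, a ratio of 3.06 (2.51 to 3.75). Of 14 genes listed for peptide loading and MHC class I, 6 were found, with a median ratio of 1.28. Of these, 2 were called higher in Shaziling, beside 35.8% of all genes with a symbol, and 0 were called higher in Yorkshire, beside 3.21%. The called genes were TAP2 and B2M, the light chain of MHC class I, which had 48.3 and 111 RPKM (2.30; 2.22 to 2.38). The other 4 had ratios of 1.39 for TAPBP, 1.18 for CANX, 1.04 for PDIA3 and 0.933 for CALR.

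Interferon-response genes had no common direction beside PSMB9. Of 16 genes listed 9 were found, with a median ratio of 1.23, 3 called higher in Shaziling and 1 called higher in Yorkshire. Of all genes with a symbol, 35.8% and 3.21% were called in these directions. The 3 with the highest mean RPKM of both libraries had lower values in Shaziling: OAS2 had 15.1 RPKM in Yorkshire and 7.25 RPKM in Shaziling and was called, MX1 had 7.95 and 5.79 RPKM, and IFIT1 had 6.90 and 5.09 RPKM. IRF9, next in mean level, had 3.96 RPKM in Yorkshire and 6.45 RPKM in Shaziling, a ratio of 1.63 (1.36 to 1.95) that was not called. The 3 called higher in Shaziling, named after their values were seen, were the transcription factors STAT2 (1.999 and 5.14 RPKM) and IRF1 (0.981 and 2.58 RPKM) and the MHC class I transactivator NLRC5 (0.295 and 1.92 RPKM). OAS2 had 4 matched unigenes and STAT2 and NLRC5 had 2 each, and their values are of the unigene with the highest mean RPKM only. Of 18 leukocyte markers listed 5 were found, and 4 were called higher in Shaziling, the direction of PSMB9. Of all genes with a symbol 35.8% were called in that direction. The summed level of the 5 markers was 41.5 RPKM in Yorkshire and 85.9 RPKM in Shaziling. CD74, the MHC class II invariant chain, made up most of that sum with 35.1 and 74.8 RPKM. FCER1G, a subunit of Fc receptors, had 4.90 RPKM in Yorkshire and 3.73 RPKM in Shaziling (ratio 0.761, 0.550 to 1.05) and was not called. The calls of ITGAM and CD52 rested on few reads. ITGAM had 1 read in Yorkshire against 9 in Shaziling on 1 of its 3 unigenes, and CD52 had 8 against 19. None of the 5 leukocyte markers was at 0 reads in either library. Their part in the PSMB9 value was not tested.

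In the 19S cap, 1 of the 5 genes was called higher in Shaziling, beside 35.8% of all genes with a symbol. The median ratio was 1.63, near the 1.57 over genes with a symbol and reads in both libraries. PSMD13, a subunit of the lid, was the most abundant of the 10 genes in both libraries. Its unigene (contig_2747, 1496 bp) had 1411 reads and 27.8 RPKM in Yorkshire and 1752 reads and 41.4 RPKM in Shaziling, a ratio of 1.49 (1.39 to 1.60). PSMD8, another lid subunit, had 805 reads and 19.7 RPKM in Yorkshire and 1308 reads and 38.4 RPKM in Shaziling (contig_3281, 1203 bp). Its ratio of 1.95 (1.78 to 2.13) lay just outside the threshold, and PSMA7 and PSMD8, on opposite sides of it, did not differ from each other beyond counting error (1.07; 0.949 to 1.202).

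PSMD1, the largest scaffold of the base, had 1350 reads and 12.2 RPKM in Yorkshire and 1836 reads and 19.8 RPKM in Shaziling (contig_5012, 3272 bp). The ratio was 1.63 (1.52 to 1.75), and it was not distinguished from that of PSMD13 (1.10; 0.991 to 1.21). When the library totals were taken without the mitochondrial unigenes, the ratio of PSMD13 fell below 1, to 0.905 (0.843 to 0.972). That of PSMD1 fell to 0.991, with an interval (0.924 to 1.06) that included 1.

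PSMC5, 1 of the ATPases of the unfolding ring, was the gene with a ratio below 1. It had 146 reads and 4.18 RPKM in Yorkshire (3.53 to 4.91) and 114 reads and 3.91 RPKM in Shaziling (3.23 to 4.70). The ratio was 0.936 (0.727 to 1.205; exact binomial test, adjusted p = 0.750), so no difference was detectable at this depth and as deposited. Under the 4 other scalings the ratio was 0.569 to 0.733 and its interval lay below 1. The lowest came with totals without the mitochondrial unigenes (0.442 to 0.732; exact binomial test, adjusted p = 4.78e-05), and PSMC5 reached the FC threshold under none of the 5. Its unigene (contig_16718, 1030 bp) was shorter than the coding sequence, 0.842 of its length, the only such case among the 10. The unigenes of PSMA7 and PSMD9 were 2.95 and 2.21 times as long as their coding sequences. Those of the remaining genes were 1.14 to 1.36 times as long. What the added length holds was not tested.

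PSMD9 is named as a cap gene but encodes a chaperone that assists assembly of the base and is not part of the finished proteasome. It had 86 reads and 1.71 RPKM in Yorkshire and 153 reads and 3.64 RPKM in Shaziling (contig_25456, 1484 bp). The ratio of 2.13 (1.63 to 2.81; exact binomial test, adjusted p = 9.75e-08) was just inside the threshold, and with a pseudocount of 1 RPKM it was 1.71 and outside. Without PSMD9, 0 of the 4 remaining cap genes were called and their median ratio was 1.56. The shares over all genes with a symbol were 35.8% called higher in Shaziling and 3.21% called higher in Yorkshire.

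**Figure D2:**
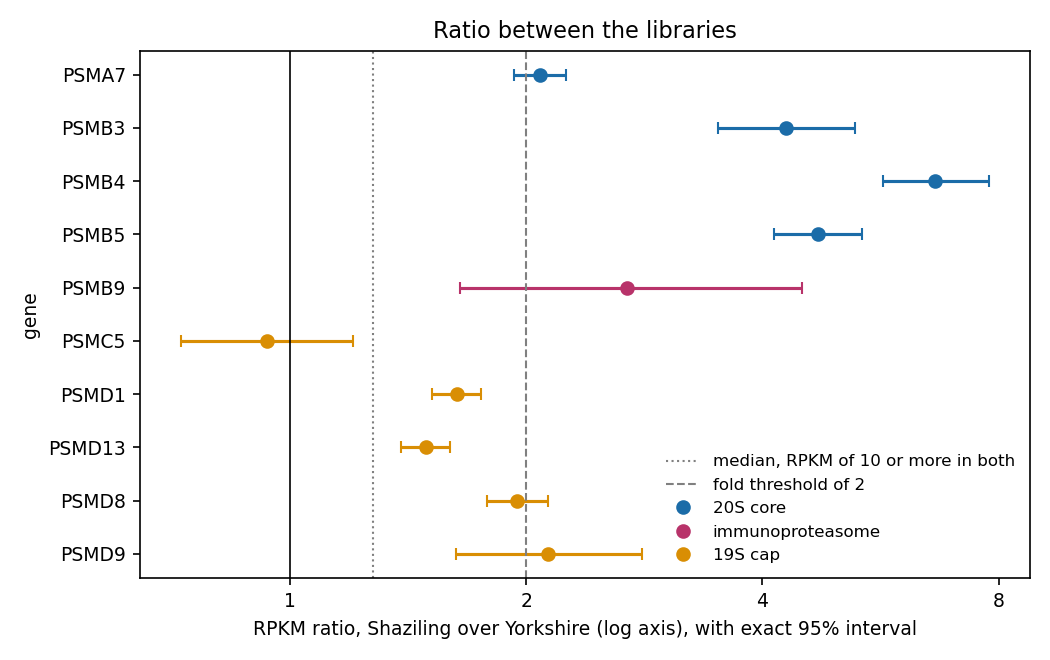
RPKM ratio of Shaziling over Yorkshire (log axis) of the 10 proteasome genes with exact 95% intervals on the reads, coloured by group; the dotted line marks the median ratio of 1.28 of unigenes that reached 10 RPKM in each library and the dashed line the FC threshold of 2. PSMB3, PSMB4 and PSMB5 lie apart from the 5 cap genes, and PSMA7, PSMD8 and PSMD9 lie around the threshold.

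The core and the cap were then compared directly, through the quotient of core over cap within each library, which no scaling of the libraries can change. It was taken on summed RPKM and on summed reads. The 4 core genes summed to 33.6 RPKM in Yorkshire and 131 RPKM in Shaziling, and the 5 cap genes to 65.5 and 107 RPKM. These 4 core genes therefore stood at 0.512 of the cap in Yorkshire and at 1.22 times the cap in Shaziling. With PSMB7 added, the core stood above the cap in both libraries, at 1.09 times it in Yorkshire and 1.66 times in Shaziling. On the summed RPKM, the quotient was thus 2.39-fold larger in Shaziling for the 4 core genes and 1.51-fold larger with PSMB7. On the summed reads, which are not scaled by unigene length, the quotient of core over cap was 1.998-fold larger in Shaziling (1.86 to 2.14). For the 3 beta-ring genes alone the quotient of reads was 3.21-fold larger (2.91 to 3.54), and with PSMB7 in the core it was 1.46-fold larger (1.37 to 1.55). The size of the shift, and whether the core lay below the cap in Yorkshire, thus depended on which core genes were included.

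Pair by pair, the ratio of a core gene was larger than that of a cap gene in 19 of 20 pairs, and in 18 of the 20 the exact interval of the quotient left out 1. The 2 pairs not distinguished were PSMA7 with PSMD8 and PSMA7 with PSMD9, the latter with the cap gene slightly ahead (1.02; 0.773 to 1.37). The widest quotient was that of PSMB4 over PSMC5, 7.10 (5.26 to 9.57). PSMB7 was outside these pairs and did not share their direction. Its ratio of 1.22 (1.13 to 1.32) lay above that of PSMC5 but below those of the other cap genes. The nearest of these was PSMD13 at 1.49 (1.39 to 1.60). Differences were also present inside the groups, in 5 of 6 pairs of core genes and 7 of 10 pairs of cap genes, and over all 45 pairs the interval left out 1 in 35. These intervals were not adjusted for the number of pairs, and the groups hold few genes of 1 library each. Pairs of other genes were not counted in this way, so the counts do not set the proteasome genes apart. Ratios of genes with a symbol in the same range of mean RPKM also varied, with quartiles of 0.991 and 2.46.

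The order of levels differed between the libraries. In Yorkshire it was PSMD13, PSMD8, PSMA7, PSMD1, PSMB5, PSMB4, PSMB3, PSMC5, PSMD9, PSMB9, where PSMB4 and PSMB3, and PSMB3 and PSMC5, were neighbours within counting error. In Shaziling it was PSMD13, PSMB4, PSMB5, PSMD8, PSMA7, PSMB3, PSMD1, PSMC5, PSMD9, PSMB9. Of these, PSMD13, PSMB4, PSMB5 and PSMD8 could not be told apart as neighbours, at 38.4 to 41.4 RPKM, nor could PSMC5 and PSMD9. PSMB4 moved from rank 6 to rank 2 and PSMD1 from rank 4 to rank 7, while PSMD13, PSMC5, PSMD9 and PSMB9 kept their ranks. Levels in the 2 libraries had a Spearman rho of 0.77 across the 10 genes, as a description. The core genes spanned 2.61-fold from lowest to highest in Yorkshire and 1.77-fold in Shaziling, and the cap genes 16.3-fold and 11.4-fold.

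Assembly chaperones of the proteasome, which guide the building of the rings, were measured beside PSMD9. PSMG3 and PSMG4 form a dimer that helps the alpha ring to close. PSMG3 had 16 reads in Yorkshire against 153 in Shaziling (0.517 and 5.93 RPKM), and its ratio of 11.5 (6.84 to 20.6) lay above those of the 10 genes, with an interval that overlapped that of PSMB4. PSMG4 had 22 and 111 reads (1.27 and 7.69 RPKM), with a ratio of 6.05 (3.81 to 10.05). The partner dimer of PSMG1 and PSMG2 differed less: PSMG1 had 9.73 and 13.9 RPKM (1.43) and PSMG2 had 4.50 and 5.76 RPKM (1.28; 1.02 to 1.61), and neither was called. PAAF1, a chaperone of the base, had 1.60 and 2.95 RPKM, a ratio of 1.85 that was not called. Of 52 symbols listed for subunits, activators, inhibitors and chaperones, 18 were found. The 8 outside the 10 genes had a median ratio of 1.88, with 3 called higher in Shaziling (PSMG3, PSMG4 and PSME2) and 0 in Yorkshire. Of all genes with a symbol, 35.8% and 3.21% were called in these directions, so 3 of 8 was near the share over all genes. The other 34 symbols were not analysed here.

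**Figure D3:**
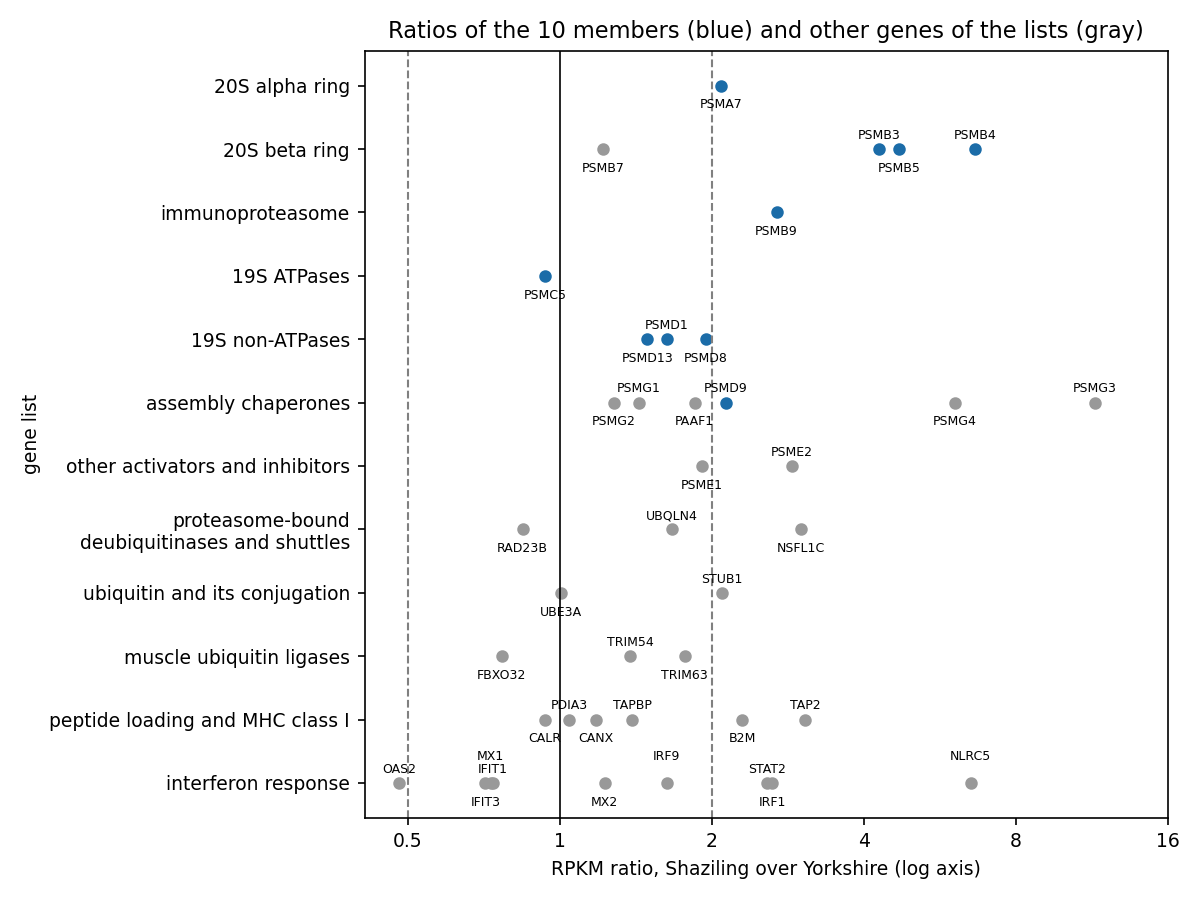
RPKM ratio of Shaziling over Yorkshire (log axis) of the genes found from each list of the ubiquitin-proteasome pathway and antigen presentation; the 10 proteasome genes are blue, other genes gray, and dashed lines mark an FC of 2 in either direction. PSMG3 and PSMG4 reach 11.5 and 6.05, PSMB7 lies at 1.22 apart from the other beta-ring genes, and the muscle ubiquitin ligases lie between 0.767 and 1.77.

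Upstream of the proteasome, few of the listed ubiquitination genes were found. The muscle ubiquitin ligases had no called member among 3 found of 8 listed, with a median ratio of 1.38. The shares over all genes with a symbol were 35.8% called higher in Shaziling and 3.21% called higher in Yorkshire. TRIM63 had 52.1 RPKM in Yorkshire and 92.1 RPKM in Shaziling (1.77; 1.68 to 1.87), TRIM54 had 42.4 and 58.5 RPKM (1.38), and FBXO32 had 18.97 and 14.5 RPKM (0.767; 0.703 to 0.837). The intervals of TRIM63 and FBXO32 lay on opposite sides of 1. Of 21 ubiquitin and conjugation genes 2 were found, the ligase STUB1 with 9.37 and 19.6 RPKM (2.09, called) and UBE3A with 30.0 and 30.2 RPKM (1.01). Of 13 shuttle and deubiquitinase genes 3 were found: NSFL1C, a cofactor of the p97 unfoldase, had 6.58 and 19.7 RPKM (2.997, called), UBQLN4 had 5.08 and 8.47 RPKM (1.67), and the shuttle RAD23B had 62.8 and 53.0 RPKM (0.844). NFE2L2, a transcription factor that can induce proteasome genes, was the only 1 of 5 listed regulators found and had 36.9 and 28.9 RPKM (0.784).

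The scaling of the libraries moved all 10 ratios by the same factor, and with it the count of calls. Relative to the median log2 ratio of 0.35, the log2 ratios were 2.38 for PSMB4, 1.88 for PSMB5, 1.75 for PSMB3, 1.07 for PSMB9, 0.74 for PSMD9, 0.70 for PSMA7, 0.61 for PSMD8, 0.35 for PSMD1, 0.22 for PSMD13 and -0.45 for PSMC5. That median is of unigenes with 10 RPKM or more in each library, a level that PSMB3, PSMB4, PSMB5, PSMB9, PSMC5 and PSMD9 missed in Yorkshire. For genes with a symbol in the range of mean RPKM of the 10 genes, the median was 0.58. PSMD13, at 0.57 as deposited, lay at that level. PSMB3, PSMB4 and PSMB5 were called higher in Shaziling under all 5 scalings, with lowest ratios of 2.60, 4.04 and 2.86. PSMB9 was called under 2 of the 5 scalings, and PSMA7 and PSMD9 under 1, the scaling as deposited. PSMC5 had a ratio below 1 under each of the 5. With totals taken without the mitochondrial unigenes, 3 of the 10 genes were called higher in Shaziling beside 17.3% of all genes with a symbol, and 0 higher in Yorkshire beside 15.0%. Under that scaling PSMB7 had a ratio of 0.741, and it was above 1 only as deposited.

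**Figure D4:**
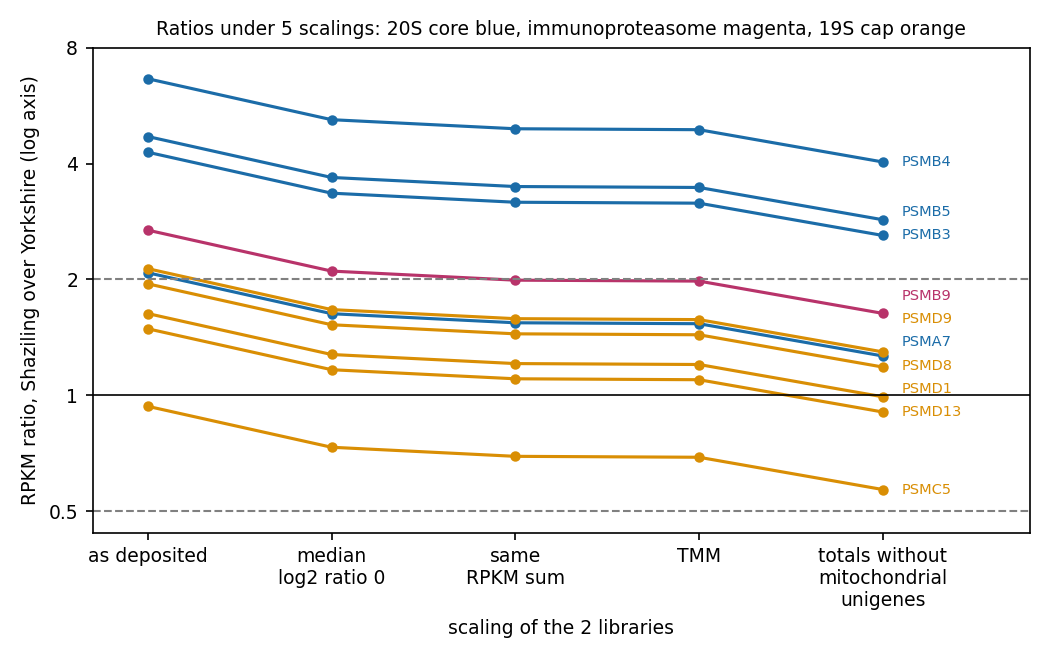
RPKM ratio of Shaziling over Yorkshire (log axis) of the 10 proteasome genes under 5 scalings of the libraries, coloured by group, with a solid line at 1 and dashed lines at an FC of 2. PSMB3, PSMB4 and PSMB5 stay above 2 under all 5, while PSMD1 and PSMD13 cross 1 with totals without the mitochondrial unigenes.

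The genes with the largest ratios encode short proteins. Protein length and ratio had a Spearman rho of -0.67 across the 10 genes, and unigene length and ratio one of -0.64, as descriptions over 10 genes that share the same 2 libraries. Among the 2941 genes with a symbol and a mean RPKM in the range of the 10 genes, the median ratio was 1.65 for 842 genes with proteins of up to 300 residues, 1.57 for 949 with more than 300 and up to 500 residues and 1.32 for 1150 with longer ones. PSMB3, PSMB4 and PSMB5, with 205, 264 and 275 residues, lay above the upper quartile of 2.89 of the first class, and PSMA7 (248) and PSMB9 (219) lay below it, as did PSMB7 (277) and the chaperone PSMD9 (223). Among the cap genes, PSMD8 (351) lay above the median of its class and PSMD13 (376) and PSMC5 (407) below it. PSMD1, of 953 residues, stood above the median of 1.32 of long proteins. Whether fragment length or RNA quality differed between the libraries was not tested.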

How the data were processed

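RNA-seq was made from the LM of 3 pigs per breed, with 1 column of values per breed. The authors trimmed the reads, assembled those of both breeds de novo into unigenes with CLC Genomics Workbench and matched the unigenes to the nr and UniProt databases by BlastX. The counts deposited by the authors are unnormalized whole numbers of reads per unigene, and the program that counted them was not given in the sources used here. The authors obtained the RPKM values with Qualimap (0.5 in the submitters' processing notes) relative to unigene length and library total, and were recomputed from reads and lengths with a largest relative difference of 1.14e-08. The deposited unigene lengths are in bp. The submitters' processing notes also list CASAVA 1.8, TopHat2 2.0.6 and a mouse build that the methods do not mention, and no coordinate was used here. Of the columns of values per sample, 0 were left unused.

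Breeds were taken from the sample titles. Symbols came from RefSeq protein accessions of the assembly Sscrofa11.1 (4530 unigenes matched with the version and 1168 without it), and 5 further genes of the lists, PSMB7 and PSME1 among them, came from Swiss-Prot names. Where a gene outside the 10 had several unigenes, the one with the highest mean RPKM stood for it. All 10 members, every other proteasome gene found, all muscle ligases and peptide-loading genes found, and the 3 most abundant genes of each other list were to be named; other names are given where a count turned on them. The members and the lists were chosen with earlier results of these data known, and no p-value is given for a list. Reads were compared between libraries by an exact binomial test, two-sided, given both library totals (FC of 2, false discovery rate of 0.05), because DEGseq, which the study used, was not available. Of all unigenes in the table, 16521 were called higher in Shaziling and 5032 higher in Yorkshire. The study reported far fewer differentially expressed unigenes at the same thresholds, so a call here is not equivalent to one in the study. The test was run on simulated data beforehand. Quotients of ratios have exact conditional 95% intervals. The precision is limited by 25 to 1836 reads per gene and library. Alternatives were other scalings (same RPKM sum, median log2 ratio of 0, TMM, totals without the mitochondrial unigenes), FC thresholds of 1.5 and 3, a false discovery rate of 0.01, RPKM minimums of 1 and 10, pseudocounts of 1 and 0.1, other choices of unigene and leaving out PSMD9. The tools were edgeR 4.0.16 in R 4.3.3 for TMM factors and scipy 1.17.1, pandas 2.3.3 and numpy 2.4.6 in Python 3.11.15.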

Additional observations from a re-analysis of the deposited data

How the results depend on the processing

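Of 81 ratios of single genes recomputed under an alternative, 66 kept their direction and whether they were called. These include the ratios for the longest unigene and the sum of unigenes, which could not differ. A further 13 kept the direction but were no longer called, and 2 changed direction. Both of the latter came with totals without the mitochondrial unigenes, at 0.905 for PSMD13 (0.843 to 0.972) and 0.991 for PSMD1. The interval of PSMD1 (0.924 to 1.06) included 1. The count of genes called higher in Shaziling, 6 as reported, was 3 with the same RPKM sum and with TMM. It was also 3 with totals without the mitochondrial unigenes and at an FC of 3. With a median log2 ratio of 0 and at an RPKM minimum of 10 it was 4, and at an FC of 1.5 it was 8. The count called higher in Yorkshire stayed 0. Of all genes with a symbol, 35.8% were called higher in Shaziling as reported. This share was 23.9% with the same RPKM sum, 25.6% with a median log2 ratio of 0 and 23.8% with TMM. With totals without the mitochondrial unigenes it was 17.3%. For Yorkshire, 3.21% as reported, these were 8.32%, 7.20%, 8.43% and 15.0%. The median log2 ratio of the 20S core, 2.17 as reported, was 1.73 with the same RPKM sum, 1.81 with a median log2 ratio of 0, 1.73 with TMM and 1.45 with totals without the mitochondrial unigenes. For the 19S cap, 0.71 as reported, these were 0.27, 0.35, 0.27 and -0.012. The last had a change of sign, but it was the value of PSMD1, whose ratio was not distinguished from 1. The log2 ratio of PSMB9, 1.43 as reported, was 0.71 with totals without the mitochondrial unigenes. These moves follow from the factor each scaling applies to every gene. The longest unigene and the sum of unigenes gave the same values, since each gene had 1 unigene. Among the alternatives chosen after the data were seen, the fragment named PSMA7 brought PSMA7 from 2.08 to 2.26, above its interval of 1.93 to 2.25. PSMB7 brought the median log2 ratio of the core from 2.17 to 2.10. It also brought the fold between libraries of the core over cap quotient, on summed reads, from 1.998 to 1.46.

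No paired analysis was possible because each breed had 1 library. There was no replicate to leave out, and pigs, litters and library preparation cannot be told apart from breed. Depth limits PSMB9 most, with 25 and 56 reads.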
